A study of Saccharomyces cerevisiae with 22 samples.

Results

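Budding yeast cells of strain W303 that overexpressed untagged PSD1 were compared with cells that overexpressed V5-tagged PSD1, by sequencing of polyA RNA. The comparison takes 11 of the 22 libraries of the series, chosen by their labels alone: 6 libraries of cells with the PSD1 plasmid and 5 of cells with the V5-PSD1 plasmid. Both plasmids were multicopy and drove the gene from the galactose-inducible GAL1-10 promoter in the same strain. The 5 empty-vector libraries and the 6 libraries of cells with the PSD1 plasmid and a PDR3 deletion serve here for orientation. All cells grew in yeast extract and peptone with 2% raffinose and received 2% galactose for 4 h. The labels give the V5 tag, a short epitope recognised by antibodies, but do not say where in the protein it sits. They do not say that replicates were separate cultures, so p-values measure the spread between samples, which may be technical.

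PSD1 encodes phosphatidylserine decarboxylase of the mitochondrial inner membrane, which makes phosphatidylethanolamine. Its precursor carries a targeting sequence that must pass through the import channels of both mitochondrial membranes before the protein matures. Precursors that stall in those channels are known to set off a response in which the transcription factor Pdr3 raises CIS1. The Cis1 protein brings the membrane extractor Msp1 to the import receptor Tom70, and stalled precursors are then removed for degradation by the proteasome. Pdr3 and its relative Pdr1 also control drug exporters of the plasma membrane through a short palindromic promoter site, the pleiotropic drug response element.

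That element is shown for 5 of the genes that were higher with untagged PSD1 and held it, 4 of them of the drug resistance list and BDH2 of the reductases. Each line gives 20 bases on either side of the copy nearest to the start codon, read 5′ to 3′ on the strand of the gene from the R64 reference (sacCer3), which is not the W303 genome. Capitals mark the element, TCCGCGGA.

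CIS1: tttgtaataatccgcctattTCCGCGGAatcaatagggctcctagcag
PDR5: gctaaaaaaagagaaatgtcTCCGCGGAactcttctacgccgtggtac
PDR15: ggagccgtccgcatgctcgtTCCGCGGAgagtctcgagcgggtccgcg
PDR3: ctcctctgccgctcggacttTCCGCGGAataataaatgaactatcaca
BDH2: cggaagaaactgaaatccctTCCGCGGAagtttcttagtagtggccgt

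The CIS1 line lies at chrXII:822890-822937 on the minus strand, with 317 bases between the element and the start codon. PDR5 is shown at chrXV:619507-619554 (plus strand, 305 bases from the start codon, the nearer of 2 copies). PDR15 is at chrIV:1278811-1278858 (plus strand, 371 bases), PDR3 at chrII:217259-217306 (plus strand, 183 bases, 2 copies) and BDH2 at chrI:33034-33081 (plus strand, 386 bases). TCCGNGGA, searched on both strands of the 500 bases before the start codon and including every TCCGCGGA, was present in 15 of the 19 drug resistance genes (78.9%). It was present in 168 of 5785 protein-coding genes tested (2.9%) and in 13 of the 104 that were at least 2 fold higher with untagged PSD1 (12.5%). The fully palindromic TCCGCGGA stood in 7 of those 19 genes (36.8%) and in 0.588% of all. Of other genes named below as higher, YGR035C and GRE2 held TCCGNGGA but not TCCGCGGA, and ARI1 and RSB1 held neither.

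Library totals were 8152941 to 16920928 counts with PSD1 and 11426171 to 20839061 counts with V5-PSD1. Both groups were sequenced in 2 library series, named 5 and 6 after the library numbers, with 3 and 3 PSD1 libraries and 3 and 2 V5-PSD1 libraries. On the first principal component of all 22 libraries (35.3% of the variance) V5-PSD1 replicate 3 (−26.6) lay among the empty-vector libraries (−33.6 to −23.7), and V5-PSD1 replicate 1 (8.54) lay among the PSD1 libraries (4.14 to 39.7). PDR3 was at 0.142 CPM in the deletion libraries, as their label says.

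PSD1 mRNA was abundant in both groups and was called somewhat higher with the tagged gene, a call that was not stable. PSD1 (YNL169C, chromosome XIV, 316169 to 317671) was at 8094, 9938, 24968, 14163, 17204 and 17152 CPM (counts scaled to the normalised size of each library) in PSD1 replicates 1 to 6. In V5-PSD1 replicates 1 to 5 it was at 19028, 23318, 30494, 24230 and 26331 CPM. PSD1 replicate 3 lay above 3 of the V5-PSD1 libraries, and the other 5 lay below all of them. The log2 fold change, untagged minus tagged as in every difference below, was −0.69 ± 0.26 (SE; edgeR adjusted p = 0.0383). That call was lost with the 11 libraries alone (−0.71, adjusted p = 0.0517), in library series 5 alone (−0.76, adjusted p = 0.249) and in series 6 alone (−0.65, adjusted p = 0.0786). It was also lost without PSD1 replicate 1, 2 or 4 or V5-PSD1 replicate 2, 3, 4 or 5 (−0.93 to −0.55 over all runs without 1 library, highest adjusted p = 0.0968). In bulk RNA the share of cells that kept the plasmid and the RNA per cell cannot be told apart.

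Among 6 common plasmid selection markers, URA3 and LYS2 were lower and ADE2 higher with untagged PSD1. URA3 (uracil synthesis) was at 17304, 9554, 10394, 8836, 10140 and 10183 CPM with PSD1 and at 17776, 16617, 13643, 13154 and 13421 CPM with V5-PSD1 (−0.41 ± 0.13, adjusted p = 0.0151). Replicate 1 of PSD1 stood with the V5-PSD1 libraries and the other 5 stood below them. The labels do not name the marker of the plasmid, and the part of its copy number in other differences was not tested. URA3 lost its call with the 11 libraries alone (adjusted p = 0.0518), and LYS2 was at 0.0038 once the PSD1 mRNA level was a term of the model.

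Across all genes, 1277 of 6278 were higher with untagged PSD1 (20.3%) and 1264 were lower (20.1%) at an adjusted p of 0.05, with a median log2 fold change of 0.01. With limma on the deposited FPKM values 1476 were higher and 966 lower, so 60.4% of calls were higher there against 50.3% with edgeR. At least 2 fold higher were 111 genes (1.77%) and at least 2 fold lower 16 (0.255%). Of these 127 genes the 2 groups of libraries did not overlap in 94; over all genes every PSD1 library lay above every V5-PSD1 library in 9.84% and below in 10.1%. In series 5 alone the calls were 313 higher and 287 lower. With the PSD1 mRNA level as a term of the model, among the 11 libraries alone, 949 of 6196 genes were higher and 855 lower. Among the genes at 5 CPM or more that passed and whose group means of log2 CPM lay the same way in both library series, CIS1, its paralog YGR035C, PDR5, PDR15 and GRE2 had the largest rises of the annotated genes, and ZPS1 (−2.45) the largest fall.

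**Figure D1:**
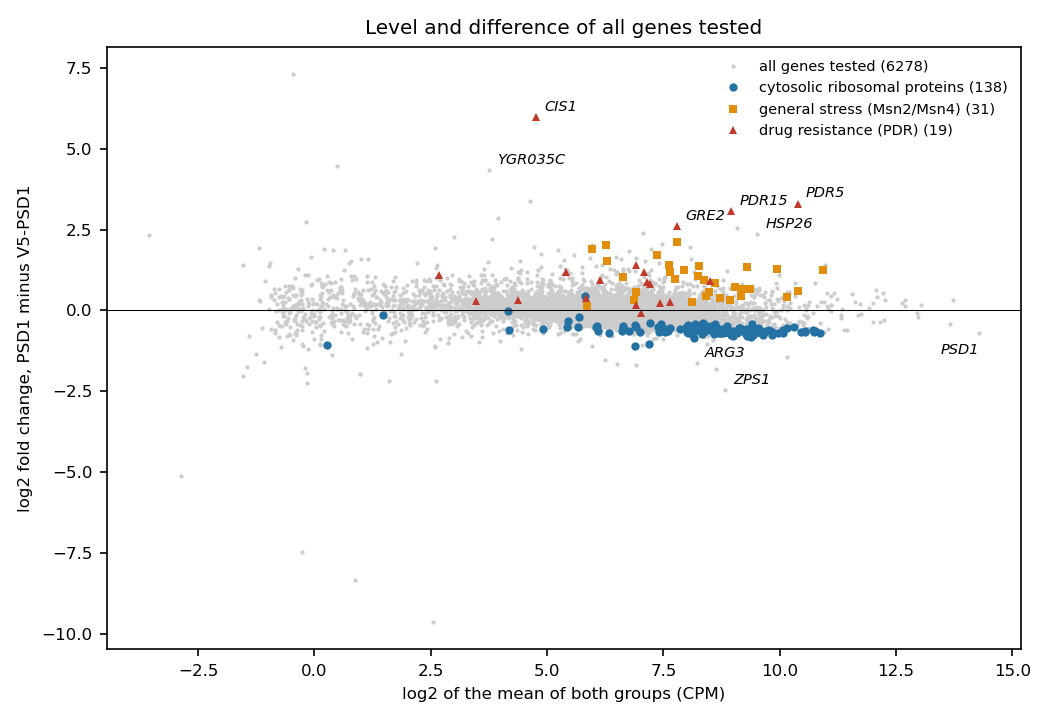
Each point is 1 of 6278 genes. The horizontal axis gives log2 of the mean CPM of both groups, and the vertical axis the log2 fold change of untagged minus V5-tagged PSD1. Triangles (drug resistance) and squares (general stress) lie mostly above 0, and circles (cytosolic ribosomal proteins) mostly below; CIS1 reaches 5.98.

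The drug resistance list held CIS1, PDR5 and PDR15, the annotated genes of the lists with the largest rises. Of its 19 members, 15 were higher with untagged PSD1 (78.9%, against 20.3% of all genes) and 0 were lower in edgeR's test, also at an unadjusted p of 0.05 and in DESeq2. Their median log2 fold change was 0.92. In 13 of them every PSD1 library lay above every V5-PSD1 library, which held for 9.84% of all genes. With the PSD1 mRNA level as a term of the model the count was 13, and in series 5 alone it was 9.

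CIS1 (YLR346C, chromosome XII, 822287 to 822592) differed most. It was at 53.2, 120, 13.7, 49.0, 42.6 and 42.7 CPM in PSD1 replicates 1 to 6 and at 1.58, 0.900, 0.488, 0.634 and 0.822 CPM with V5-PSD1. The lowest PSD1 library, replicate 3, was still above the highest V5-PSD1 library, and V5-PSD1 did not pass against the empty vector, whose mean was 0.590 CPM (0.57, adjusted p = 0.621). The log2 fold change was 5.98 ± 0.46 (adjusted p = 2.71e-08), a 63.0 fold difference. It was 5.99 in series 5 and 5.94 in series 6, lay between 5.58 and 6.21 without any 1 library, and was 4.55 (adjusted p = 0.000536) with the PSD1 mRNA level as a term.

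YGR035C, an uncharacterised paralog of CIS1 (chromosome VII, 557072 to 557422), was second. With PSD1 it was at 19.8, 70.4, 4.00, 29.2, 16.7 and 13.3 CPM, and with V5-PSD1 it stayed between 1.12 and 1.58 CPM (4.34 ± 0.56, adjusted p = 9.75e-06). The order of the PSD1 libraries was led by replicate 2 and closed by replicate 3 in both paralogs, and the groups did not overlap. With the PSD1 level as a term its difference was 2.45 (adjusted p = 0.0184).

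The exporters came next. PDR5 (YOR153W), the main multidrug exporter of the plasma membrane, was at 1734, 3052, 1436, 2797, 2985 and 2606 CPM with PSD1 and at 192, 195, 275, 276 and 270 CPM with V5-PSD1. PDR15 (YDR406W), a close relative of PDR5, was at 672, 821, 710, 1015, 1118 and 1001 CPM with PSD1 and at 108, 105, 82.4, 123 and 106 CPM with V5-PSD1. Neither pair of groups overlapped, and every V5-PSD1 library was below the empty-vector mean for PDR5 (285 CPM) and around it for PDR15 (105 CPM). The log2 fold changes were 3.30 ± 0.16 (adjusted p = 3.43e-11) and 3.07 ± 0.21 (adjusted p = 4.33e-09), and 3.13 and 2.98 with the PSD1 level as a term. The entries YDR406W-A (3.39 ± 0.46) and YOL150C (2.86 ± 0.45), which the annotation does not hold and whose systematic names place them beside PDR15 and GRE2, rose as well, and reads shared with neighbouring genes could not be told apart from their own. Smaller rises were seen for the exporters SNQ2 (0.92 ± 0.13), YOR1 (0.87 ± 0.15) and PDR10 (0.38 ± 0.12, groups overlapping). The polyamine exporters TPO1 (0.21, adjusted p = 0.496) and TPO4 (0.16, adjusted p = 0.687) did not pass.

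**Figure D2:**
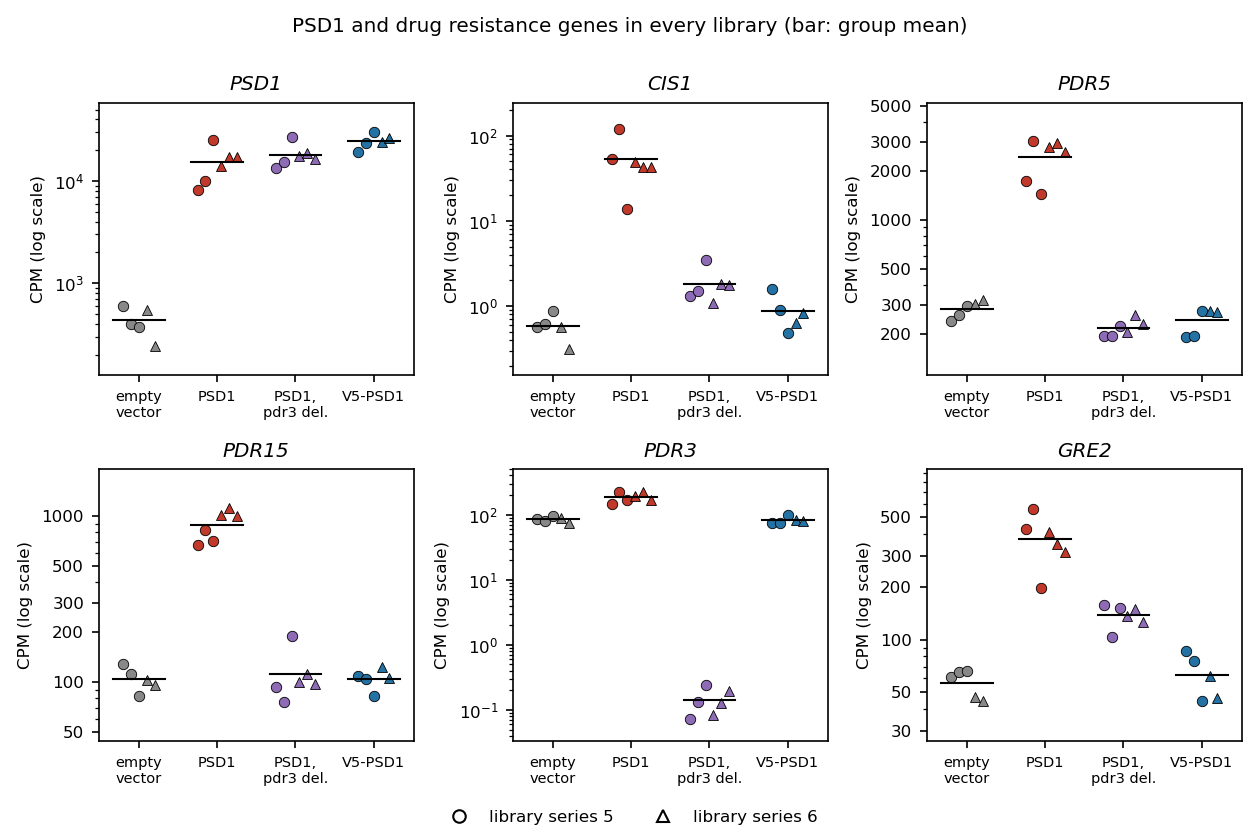
CPM on a log scale in each of the 22 libraries for PSD1 and 5 drug resistance genes, with circles for library series 5, triangles for series 6 and a bar at each group mean. PSD1 mRNA overlaps between untagged and V5-tagged libraries, while CIS1, PDR5, PDR15, PDR3 and GRE2 do not, and the V5-PSD1 points lie beside the empty-vector points in these 5 genes.

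Regulators of the regulon differed less. PDR3 (YBL005W), which carries the element in its own promoter, was at 145, 224, 169, 196, 221 and 171 CPM with PSD1 and at 74.1, 74.5, 97.5, 81.7 and 81.2 CPM with V5-PSD1 (1.20 ± 0.11, adjusted p = 2.24e-07). Its relative PDR1 was at 121 to 153 CPM and 118 to 141 CPM (0.13 ± 0.07, adjusted p = 0.149), so the groups overlapped; with the PSD1 level as a term it passed (0.26, adjusted p = 0.0338). YAP1, the activator of the oxidative stress response, was higher (0.31 ± 0.05, adjusted p = 0.000108). The ribosome-bound cochaperone ZUO1, whose product can activate Pdr1, was lower (−0.26 ± 0.09, adjusted p = 0.0357), a call lost in 9 of 11 runs without 1 library. In all, 2 of 14 regulators were higher and 4 lower, shares of 14.3% and 28.6% that lie near those of all genes.

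Of 29 sphingolipid genes 7 were higher and 7 lower (24.1% each), near the 20.3% and 20.1% of all genes. RSB1, which moves long-chain sphingoid bases, was at 41.9 to 82.1 CPM with PSD1 and 20.8 to 29.1 CPM with V5-PSD1 (1.18 ± 0.15, adjusted p = 6.22e-06). The ceramide synthase gene LAC1 rose by 0.95 ± 0.11 (adjusted p = 5.09e-06). ICT1 and PDR16, which are not among the 29, rose by 1.40 ± 0.22 and 0.83 ± 0.15. In LAC1, ICT1 and PDR16 the groups did not overlap. The fatty acid elongase gene ELO3, not of the regulon, fell by 0.64 ± 0.06 (adjusted p = 7.81e-07), from 353 to 377 CPM with V5-PSD1 to 196 to 247 CPM with PSD1.

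Phospholipid synthesis, the pathway of the Psd1 enzyme itself, hardly differed. Of 25 genes 2 were higher and 2 lower (8% each, below the shares of all genes). PSD2, the decarboxylase outside mitochondria, was at −0.11 (adjusted p = 0.431), and CHO1, which makes phosphatidylserine, at 0.26 (adjusted p = 0.489). MDM35, whose product carries lipid-transfer proteins in the intermembrane space, was at 96.2 to 159 CPM with PSD1 and 62.6 to 84.2 CPM with V5-PSD1 (0.71 ± 0.11, adjusted p = 3.72e-05), or 0.39 with the PSD1 level as a term. Its partner UPS2, which transfers phosphatidylserine, was at −0.38 ± 0.15 (adjusted p = 0.0452) and lost that call in 7 of 15 alternatives.

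Reductases of aldehydes and ketones rose with the exporters. Of 18 genes 13 were higher (72.2%) and 0 lower in edgeR's test, with a median of 0.48. Also at an unadjusted p of 0.05 and in DESeq2 0 were lower. In series 5 alone 7 were higher, and 10 with the PSD1 level as a term. GRE2, a methylglyoxal reductase that the drug resistance list also holds, was at 428, 555, 198, 411, 353 and 318 CPM with PSD1 and at 86.4, 75.1, 44.8, 62.2 and 46.5 CPM with V5-PSD1 (2.61 ± 0.22, adjusted p = 8.8e-08). BDH2, a putative alcohol dehydrogenase, was at 205 to 328 CPM and 53.7 to 84.7 CPM (2.06 ± 0.18, adjusted p = 2.24e-07). ARI1, an aldehyde reductase, was at 40.7 to 149 CPM and 21.0 to 34.1 CPM (1.96 ± 0.21, adjusted p = 1.58e-06), or 1.12 with the PSD1 level as a term. PSD1 replicate 3 was the lowest untagged library in all of these 3 genes, as it was in CIS1, YGR035C and PDR5. It held the most PSD1 mRNA of its group. In PDR15 (672 CPM) and PDR3 (145 CPM) the lowest was replicate 1, which held the least PSD1 mRNA. A relation to the PSD1 mRNA level within the group was not tested.

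Genes of the general stress response under Msn2 and Msn4 rose together. Of 31 genes 24 were higher (77.4%) and 0 lower in edgeR's test, also at an unadjusted p of 0.05 and in DESeq2. Their median was 0.95, and in 16 every PSD1 library lay above every V5-PSD1 library (9.84% of all genes). In series 5 alone 11 passed as higher, and 19 with the PSD1 level as a term. SPI1, a cell wall protein gene, was at 131, 115, 90.7, 151, 111 and 133 CPM with PSD1 and at 45.2, 30.9, 28.7, 27.3 and 22.9 CPM with V5-PSD1 (2.02 ± 0.20, adjusted p = 6.03e-07). GND2, the minor 6-phosphogluconate dehydrogenase, was at 305 to 408 CPM against 46.7 to 128 CPM (2.13 ± 0.31, adjusted p = 2.89e-05). The hydrophilin gene SIP18 (1.90 ± 0.42) passed with overlapping groups, and so did GRE1 (1.71 ± 0.50), which lost its call in series 5 alone and with the PSD1 level as a term. The transaldolase gene NQM1, outside the list, rose by 2.38 ± 0.28 (adjusted p = 4.3e-06). AGGGG, the core of the stress response element, stood before 70 of the 104 protein-coding genes at least 2 fold higher (67.3%) and before 34.3% of all.

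Oxidative stress genes were led by peroxiredoxins. Of 27 genes under Yap1, 17 were higher (63%) and 3 lower (11.1%), with a median of 0.31, and 9 were higher with the PSD1 level as a term and 5 in series 5 alone. AHP1, a thiol peroxidase, was at 3763, 2984, 2968, 2786, 2386 and 2383 CPM with PSD1 and at 1526, 1266, 1027, 942 and 855 CPM with V5-PSD1 (1.40 ± 0.17, adjusted p = 4.05e-06). TSA2 rose by 1.17 ± 0.16, the thioredoxin gene TRX2 by 0.79 ± 0.12 and the mitochondrial peroxiredoxin gene PRX1 by 0.77 ± 0.15. In AHP1 the V5-PSD1 libraries lay between the empty-vector mean (601 CPM) and the PSD1 libraries.

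Heat shock genes did not all differ alike between the tagged and the untagged gene. Of 28 cytosolic genes under Hsf1, 9 were higher with untagged PSD1 (32.1%) and 1 was lower, with a median of 0.16. In series 5 alone 4 were higher, and 11 with the PSD1 level as a term. The same 28 genes stood at a median of 0.87 in V5-PSD1 against the empty vector, where 23 were higher, against 2.53% of all genes in that comparison, which shares the V5-PSD1 libraries with the first. HSP26, a small heat shock protein gene, was at 1260, 998, 1415, 1184, 1113 and 1222 CPM with PSD1 and at 393, 237, 254, 270 and 128 CPM with V5-PSD1. It was at 96.5 CPM on average with the empty vector. The difference was 2.35 ± 0.42 (adjusted p = 0.000178). SSA3, a stress-induced Hsp70 gene whose reads may be shared with its relatives, was at 551 to 1479 CPM and 120 to 257 CPM (2.54 ± 0.33, adjusted p = 1.22e-05). SSE2 (1.21 ± 0.15), UBI4 (0.61) and HSP42 (0.62 ± 0.16) were higher as well, while HSP104 (0.27, adjusted p = 0.189), SSA4 (0.37, adjusted p = 0.239) and SIS1 (0.06, adjusted p = 0.551) did not pass. SSA2 was lower (−0.37, adjusted p = 0.0167).

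The heat shock element is shown for 3 chaperone genes that passed, 1 cytosolic and 2 mitochondrial; HSP26 and SSA3 held no match in the same window. The search was for TTC, GAA and TTC in turn with NN between them, on both strands, and capitals mark the match as it reads on the gene strand, with 20 bases on either side (R64).

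HSP42: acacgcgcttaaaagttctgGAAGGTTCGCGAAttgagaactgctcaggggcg
HSP60: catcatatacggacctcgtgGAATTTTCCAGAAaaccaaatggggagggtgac
HSP10: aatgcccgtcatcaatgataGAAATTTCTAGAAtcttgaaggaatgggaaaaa

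These lie at chrIV:806363-806415 (plus strand), chrXII:665180-665232 (minus strand) and chrXV:370972-371024 (minus strand). The element stood before 11 of the 28 Hsf1 genes (39.3%), 2 of the 104 genes at least 2 fold higher (1.92%) and 1.43% of all.

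Mitochondrial chaperone genes were higher with untagged PSD1 in 11 of 25 cases (44%). With edgeR 0 were lower, also at an unadjusted p of 0.05 and with DESeq2. In series 5 alone 4 were higher, and 15 with the PSD1 level as a term. HSP60, the matrix chaperonin, was at 5484, 4460, 6702, 5337, 5961 and 6160 CPM with PSD1 and at 4164, 3834, 3291, 4019 and 4008 CPM with V5-PSD1 (0.55 ± 0.11, adjusted p = 0.00051). Its cofactor HSP10 rose by 0.70 ± 0.12 and the prohibitin gene PHB2 by 0.59 ± 0.08. HSP60 was also higher in V5-PSD1 than with the empty vector (0.83, adjusted p = 7.68e-05), so the tagged group lay between the other 2. The proteases YME1 (−0.04, adjusted p = 0.845) and OMA1 (0.03, adjusted p = 0.748) did not pass.

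Import genes rose in part. Of 39 genes 14 were higher (35.9%) and 1 lower, with a median of 0.19. MIA40, which traps small proteins in the intermembrane space, was at 912, 778, 972, 927, 991 and 978 CPM with PSD1 and at 689, 517, 460, 569 and 600 CPM with V5-PSD1 (0.70 ± 0.11, adjusted p = 5.35e-05). The small chaperones TIM8 (0.54 ± 0.13) and TIM13 (0.48 ± 0.09), which pass through Mia40, were higher too. The count of 14 fell to 8 without PSD1 replicate 1, to 9 without V5-PSD1 replicate 3 and to 4 both with the PSD1 level as a term and in series 5 alone.

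Of 21 genes that act on faulty proteins at the mitochondrial surface 8 were higher (38.1%) and 2 lower (9.52%), against 3 and 0 in series 5 alone. Beside CIS1, MSP1 was at 99.4, 101, 110, 106, 101 and 111 CPM with PSD1 and at 91.5, 80.1, 77.7, 82.9 and 83.1 CPM with V5-PSD1 (0.34 ± 0.06, adjusted p = 0.000376), a small difference without overlap. UBC5, a ubiquitin-conjugating enzyme gene, rose by 0.71 ± 0.12, and UFD1, a cofactor of the Cdc48 segregase, by 0.45 ± 0.06. CDC48 itself was higher by 0.28 (adjusted p = 0.0206), while UBX2, which recruits it to the import channel, was at 0.11 (adjusted p = 0.414).

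Proteasome genes were higher almost throughout and by small amounts. Of 34 genes 31 were higher (91.2%) and 0 lower in edgeR's test, also at an unadjusted p of 0.05 and in DESeq2, with a median of 0.28. PRE3, a catalytic subunit, was at 353, 266, 262, 278, 260 and 302 CPM with PSD1 and at 214, 231, 190, 200 and 185 CPM with V5-PSD1 (0.49 ± 0.08, adjusted p = 0.000123). PRE8 (0.47 ± 0.07) and RPN12 (0.41 ± 0.07) were higher likewise, and SEM1 (0.50 ± 0.14) with overlapping groups. V5-PSD1 stood at a median of 0.20 above the empty vector in these genes, with 6 called higher. With the PSD1 level as a term the 31 fell to 11, and in series 5 alone to 1. GGTGGCAAA, the proteasome-associated control element, was found before 27 of the 34 (79.4%) and 1.66% of all genes.

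**Figure D3:**
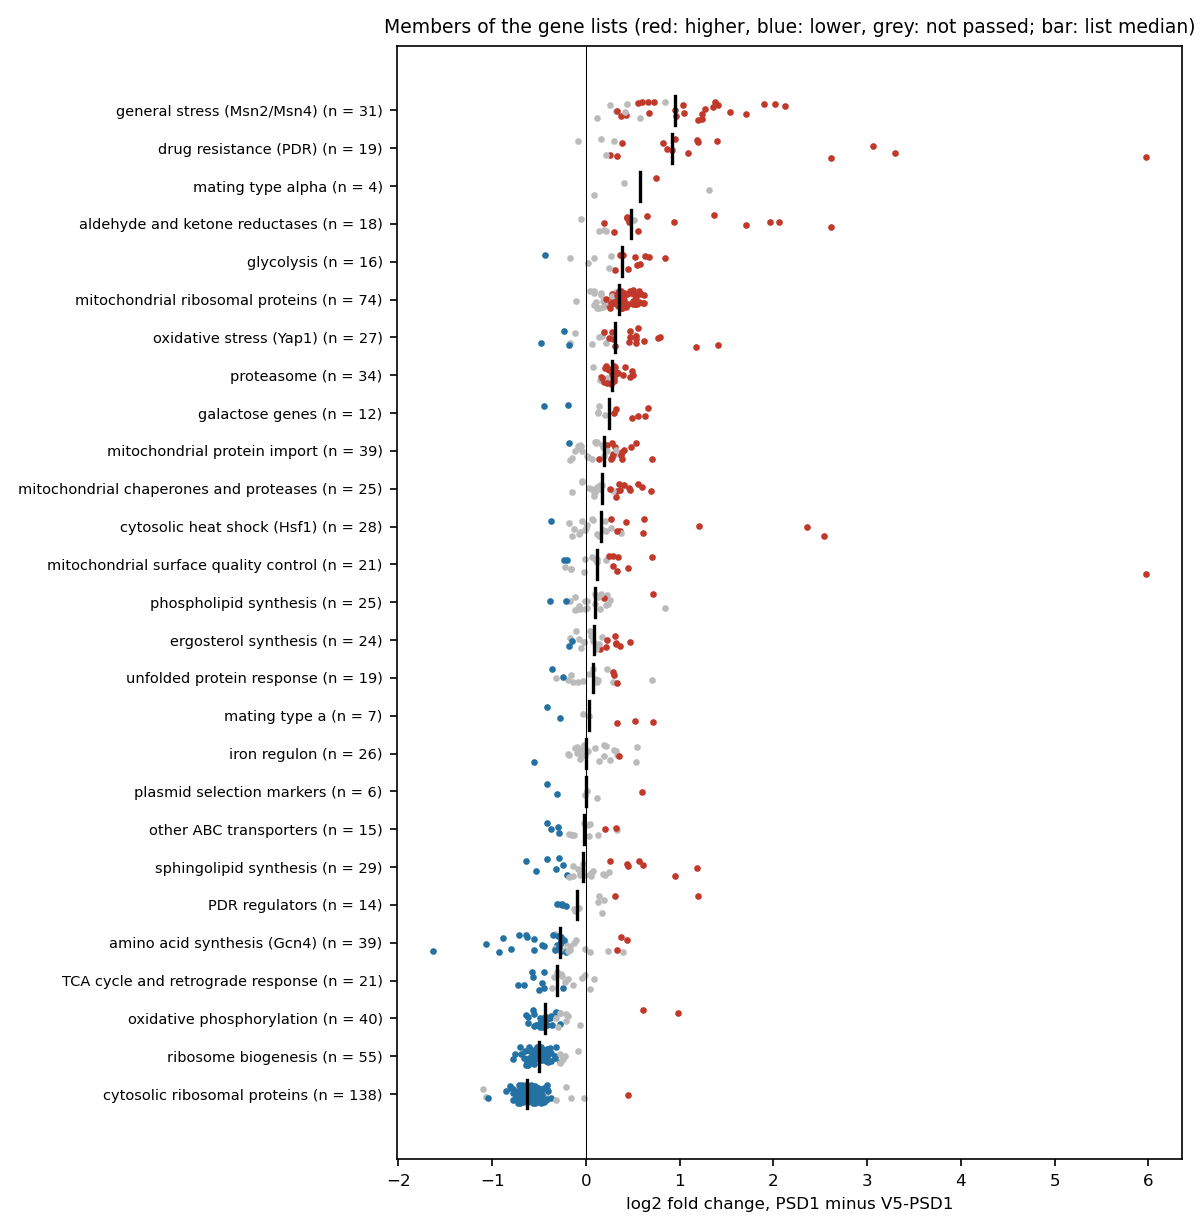
Log2 fold change, untagged minus V5-tagged PSD1, of each measured member of 27 gene lists, ordered by their median (black bar). Red points passed as higher, blue as lower, grey did not pass; general stress (0.95) and drug resistance (0.92) have the highest medians and cytosolic ribosomal proteins (−0.62) the lowest.

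The 2 kinds of ribosome moved in opposite directions. Of 138 cytosolic ribosomal protein genes 129 were lower with untagged PSD1 (93.5%, against 20.1% of all genes) and 1 was higher, with a median of −0.62. In 115 of them every PSD1 library lay below every V5-PSD1 library, which held for 10.1% of all genes. In series 5 alone 85 passed as lower, and 130 with the PSD1 level as a term. RPL7B was at 99.7, 87.4, 92.6, 96.4, 99.8 and 103 CPM with PSD1 and at 169, 209, 189, 198 and 222 CPM with V5-PSD1 (−1.04 ± 0.08, adjusted p = 1.85e-08), and at 178 CPM with the empty vector. RPS26B (−0.81 ± 0.10), RPL8A (−0.80 ± 0.08) and RPL9A (−0.85 ± 0.12) fell as well. Many of these genes have near-identical copies that share reads, so values of single copies are uncertain. In V5-PSD1 against the empty vector 0 of the 138 passed in edgeR's test, also at an unadjusted p of 0.05, at a median of 0.08.

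Ribosome biogenesis followed the cytosolic ribosome. Of 55 genes 49 were lower (89.1%) and 0 higher in edgeR's test, also at an unadjusted p of 0.05 and in DESeq2, with a median of −0.50. RPA135, a subunit of RNA polymerase I, was at 139, 166, 236, 207, 242 and 250 CPM with PSD1 and at 291, 307, 420, 347 and 377 CPM with V5-PSD1 (−0.78 ± 0.12, adjusted p = 6.31e-05). UTP22 (−0.71 ± 0.11) and RRP5 (−0.69 ± 0.10), which process ribosomal RNA, fell too. RPA135 was at −0.38 (adjusted p = 0.0164) with the PSD1 level as a term, where 41 of the 55 genes passed as lower. In series 5 alone 15 did. GATGAG, the core of the PAC element, was found before 51 of the 55 (92.7%) and 28% of all genes.

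Mitochondrial ribosomal protein genes rose instead, 58 of 74 being higher (78.4%) and 0 lower in edgeR's test at a median of 0.35, with 1 lower at an unadjusted p of 0.05 and 1 lower in DESeq2. MRP49 was at 106 to 144 CPM with PSD1 and 66.9 to 83.4 CPM with V5-PSD1 (0.62 ± 0.09, adjusted p = 4.13e-05), and MRPL28 at 146 to 165 CPM and 82.5 to 124 CPM (0.58 ± 0.09). The 58 fell to 19 with the PSD1 level as a term and to 8 in series 5 alone.

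Respiratory genes were lower. Of 40 oxidative phosphorylation genes 29 were lower (72.5%) and 2 higher, with a median of −0.43. Series 5 alone gave 4 lower, and the PSD1 level as a term gave 26. ATP2, a subunit of the ATP synthase, was at 2108, 1767, 2683, 2089, 2139 and 2319 CPM with PSD1 and at 4266, 3183, 2829, 3287 and 3301 CPM with V5-PSD1 (−0.62 ± 0.13, adjusted p = 0.000837). The highest PSD1 library was replicate 3 and the lowest V5-PSD1 library also replicate 3, and they came closest without overlap. COX4, a subunit of cytochrome c oxidase, fell by 0.62 ± 0.09. CYC7, the minor form of cytochrome c, went the other way (0.98 ± 0.18, adjusted p = 0.000193, groups overlapping). Of 21 genes of the TCA cycle and the retrograde response 9 were lower (42.9%) and 0 higher in edgeR's test, also at an unadjusted p of 0.05 and in DESeq2. FUM1 (−0.72 ± 0.16), CIT1 (−0.58 ± 0.14) and ACO1 (−0.56 ± 0.17) all had overlapping groups. The 9 fell to 2 with the PSD1 level as a term and to 0 in series 5 alone.

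Glycolysis genes were higher in 10 of 16 cases (62.5%) and lower in 1. TPI1 (0.58 ± 0.12, adjusted p = 0.000683), ENO1 (0.84 ± 0.24), TDH2 (0.68 ± 0.21) and PDC1 (0.63 ± 0.21) led, each with overlapping groups. PDC1 was at 8245 CPM in PSD1 replicate 2, above the other 5 PSD1 libraries, and it lost its call without that library (0.47, adjusted p = 0.0819), without V5-PSD1 replicate 2 (adjusted p = 0.063) and without V5-PSD1 replicate 5 (adjusted p = 0.0623). The 10 calls of the list fell to 6 with the PSD1 level as a term and to 0 in series 5 alone. Enolase, triose phosphate dehydrogenase and pyruvate decarboxylase have near-identical copies that share reads.

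Of 39 genes under Gcn4, 23 were lower with untagged PSD1 (59%) and 3 higher, with a median of −0.27. ARG3, the ornithine carbamoyltransferase gene (YJL088W, chromosome X, 268799 to 269815), was at 165, 106, 150, 151, 133 and 161 CPM with PSD1 and at 434, 446, 485, 432 and 444 CPM with V5-PSD1. The groups did not overlap, and the empty-vector mean (289 CPM) lay between them. The difference was −1.63 ± 0.11 (adjusted p = 2.67e-09), and V5-PSD1 was itself above the empty vector by 0.63 (adjusted p = 0.0012). ARG8, which acts in the mitochondrial part of the pathway, was at 69.6 to 96.4 CPM against 169 to 193 CPM (−1.07 ± 0.07, adjusted p = 4.82e-09). It also stood above the empty vector in V5-PSD1 (0.55, adjusted p = 8.55e-05). ARG56 (−1.03 ± 0.14), ARG1 (−0.92 ± 0.11) and the leucine gene LEU9 (−0.88 ± 0.10) were lower without overlap. The 23 fell to 14 with the PSD1 level as a term and to 10 in series 5 alone. TGACTC, the core of the Gcn4 site, stood before 32 of the 39 (82.1%) and 12.8% of all genes.

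**Figure D4:**
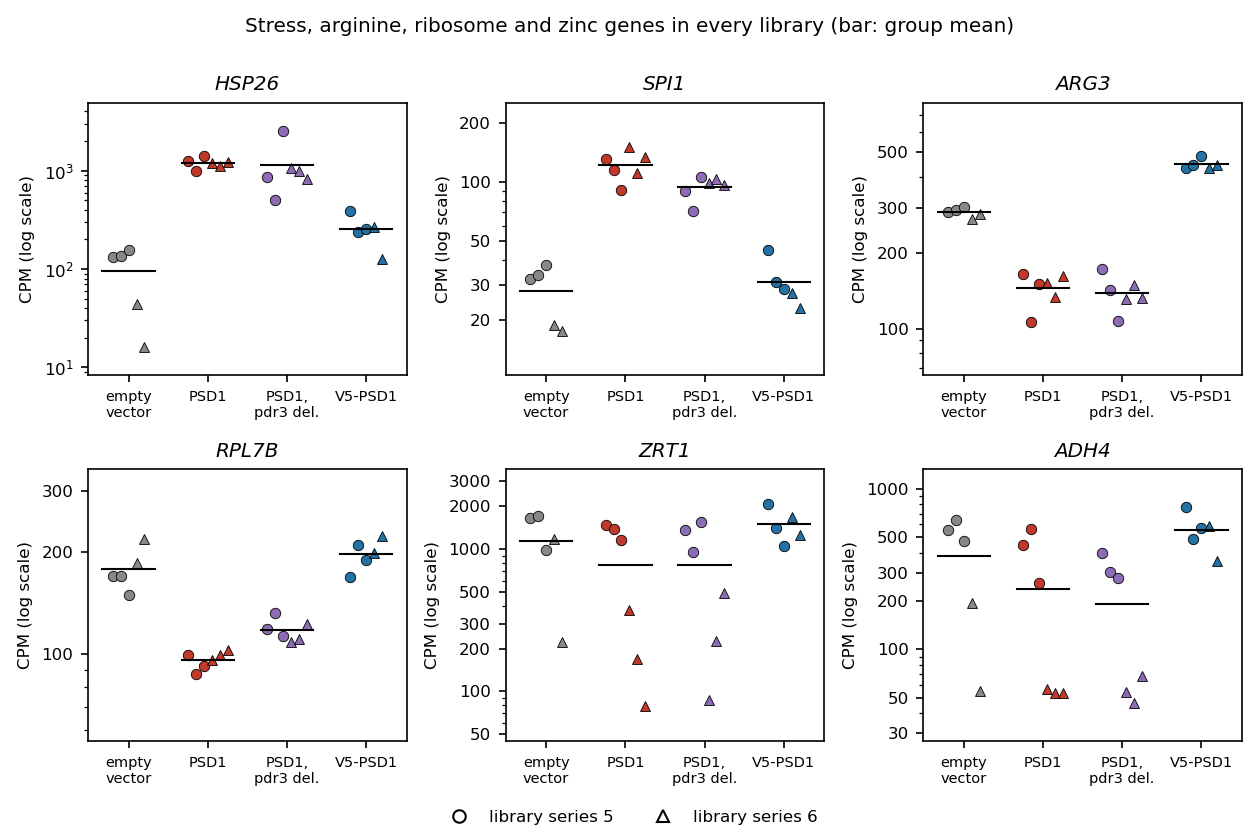
CPM on a log scale in each of the 22 libraries for 6 genes, with circles for library series 5, triangles for series 6 and a bar at each group mean. ARG3 and RPL7B are lower in every PSD1 library than in every V5-PSD1 library and HSP26 and SPI1 higher, while ZRT1 and ADH4 are low in the series 6 libraries with untagged PSD1 and in 1 empty-vector library.

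ZPS1, ADH4, YOR387C and ZRT1, all among the 10 largest falls of the genes named, differed mainly in series 6. They are known to rise in zinc shortage; they were grouped after their values were seen, and no list of zinc genes was counted. ZPS1, a zinc-regulated cell wall protein gene, was at 708, 599, 243, 43.4, 14.9 and 14.4 CPM in PSD1 replicates 1 to 6 and at 833, 582, 624, 699 and 453 CPM with V5-PSD1. The last 3 PSD1 libraries, all of series 6, were the low ones, and the first 3 overlapped with V5-PSD1. The difference was −2.45 ± 0.80 in all libraries (adjusted p = 0.0189), −0.40 in series 5 and −4.64 in series 6. ZRT1, the high-affinity zinc importer, was at 1470, 1387, 1164, 373, 169 and 78.5 CPM and at 2073, 1413, 1051, 1677 and 1255 CPM (−0.18 in series 5 and −2.83 in series 6). ADH4, an alcohol dehydrogenase known to be induced by zinc shortage, was at −0.54 and −3.11, and YOR387C at 0.06 and −3.45. Among the other series 6 libraries, the 3 with untagged PSD1 and the PDR3 deletion held at most 43.6 CPM of ZPS1, and empty-vector replicates 4 and 5 held 375 and 15.3 CPM. The calls were lost without V5-PSD1 replicate 4 in ZPS1 (−1.91, adjusted p = 0.0547), ZRT1 (−1.10, adjusted p = 0.113) and YOR387C (−0.98, adjusted p = 0.206), and all 4 lost them without the series term. The part of the medium or of a library batch was not tested. The zinc-responsive site of ZRT1 lies at chrVII:20754-20804 on the plus strand, with the match in capitals. The search was for ACCTT and AAGGT around 1 free base on both strands, and it was met before 0.156% of all genes. ZPS1, ADH4 and YOR387C held no match in the same window.

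ZRT1: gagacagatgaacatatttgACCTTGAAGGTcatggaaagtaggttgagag

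Of 12 galactose genes 6 were higher with untagged PSD1 (50%) and 2 lower (16.7%), and series 5 alone gave 2 and 0. PGM2 (0.66 ± 0.18, groups overlapping), PCL10 (0.63 ± 0.09) and GCY1 (0.56 ± 0.08) had the largest rises. GAL7 was at 3112, 4531, 3095, 3921, 3262 and 3121 CPM with PSD1 and at 2050, 2541, 3160, 2228 and 2497 CPM with V5-PSD1 (0.49 ± 0.12, adjusted p = 0.0032). GAL1 (0.14, adjusted p = 0.259), GAL2 (0.20, adjusted p = 0.182) and GAL3 (0.13, adjusted p = 0.525) did not pass. Against the empty vector, 8 of the 12 were lower in V5-PSD1 (0.494% of all genes were), at a median of −0.62. With untagged PSD1 the median against the empty vector was −0.43. PSD1 mRNA is expressed from a galactose promoter too, and the part of galactose induction in its level was not tested.

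The other lists had few calls or calls in both directions. Over all genes 20.3% were higher and 20.1% lower. Of 19 unfolded protein response genes 3 were higher (15.8%) and 2 lower (10.5%), with HAC1, its transcription factor, at −0.36 ± 0.10 (adjusted p = 0.00601). Of 24 ergosterol genes 8 were higher (33.3%) and 2 lower, with 1 higher in series 5 alone, led by ERG28 (0.47 ± 0.07). Of 26 iron genes 1 was higher and 1 lower (3.85% each), the low-affinity iron transporter gene FET4 being at −0.56 ± 0.17. Of 15 other ABC transporters 2 were higher (13.3%) and 4 lower (26.7%), STE6 being at −0.41 ± 0.13 and NFT1 at −0.37 ± 0.12. These counts were 0 and 0 in series 5 alone, and 0 and 2 without V5-PSD1 replicate 3. Of 7 genes of mating type a 3 were higher (42.9%) and 2 lower (28.6%), and of 4 alpha genes 1 was higher (25%). In series 5 alone 0 genes of both lists passed. With the PSD1 level as a term 0 of the a genes passed, and DESeq2 called 3 alpha genes higher. Summed levels were 700.1 to 916 CPM and 845 to 1300 CPM for the a genes in PSD1 and V5-PSD1 libraries, and 61.1 to 96.8 CPM and 60.3 to 75.1 CPM for the alpha genes.

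Calls made in 1 library series were set beside the other, which shares no library with it. Of 313 genes called higher in series 5 alone (3 libraries against 3), 313 had the same sign in series 6 (3 against 2) and 294 passed there as well, with a median of 0.66 in series 6. Of 287 called lower, 287 had the same sign and 270 passed. In the other direction, 1008 of 1014 genes called higher in series 6 (99.4%) had the same sign in series 5 and 294 passed there, as did 958 (99.2%) and 270 of 966 called lower. For comparison, 50.8% and 49.2% of all 6252 genes fitted in both were above and below 0 in series 6, and 50.9% and 49.1% in series 5. A test of the difference between the series, in edgeR on the 11 libraries, passed for 0 of 6278 genes. At an unadjusted p below 0.05 were 46 genes, fewer than that threshold gives by chance alone. The test was thus conservative, and its 0 calls cannot show that the series agree. No other tool was run on it, and its smallest adjusted p was 0.381. ZPS1 and ADH4 had that smallest value.

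**Figure D5:**
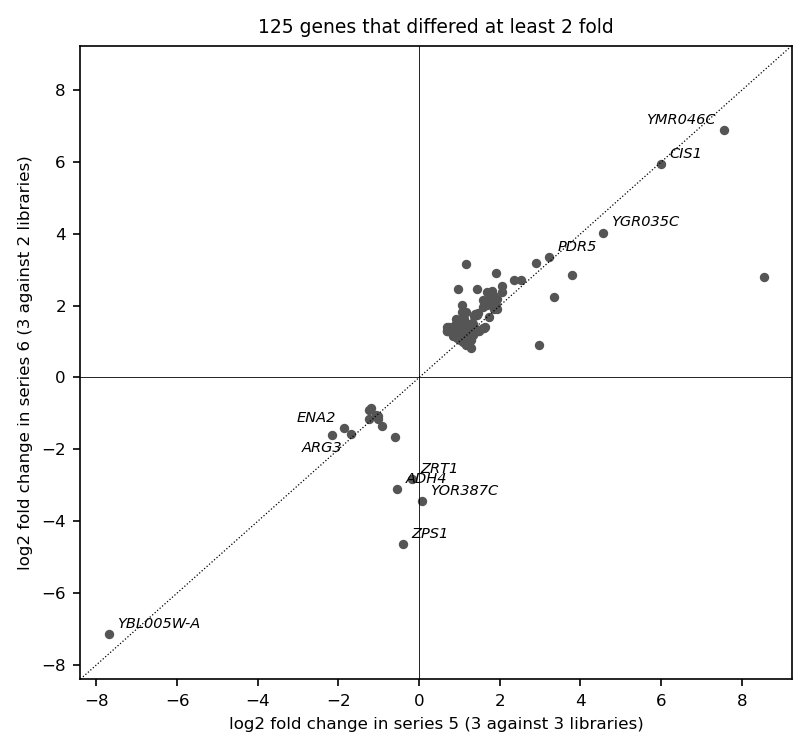
Log2 fold change, untagged minus V5-tagged PSD1, in library series 5 (horizontal, 3 against 3 libraries) and series 6 (vertical, 3 against 2) for 125 genes that differed at least 2 fold and could be fitted in both. Dotted is the line of equal values. CIS1 (5.99 and 5.94) lies on it, while ZPS1, ADH4, ZRT1 and YOR387C are at −0.54 to 0.06 in series 5 and at −4.64 to −2.83 in series 6.

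Set beside the empty vector, the tagged and the untagged gene differed from it unequally. V5-PSD1 differed from the empty vector in 190 of 6278 genes (3.03%; 159 higher and 31 lower) and untagged PSD1 in 3552 (56.6%). Both comparisons use the same empty-vector libraries. In V5-PSD1 the median of the 19 drug resistance genes was −0.04 against the empty vector, and 0 of them passed in edgeR's test, also at an unadjusted p of 0.05; with untagged PSD1 it was 0.91. The corresponding medians were 0.47 and 1.38 for general stress, 0.20 and 0.49 for the proteasome, −0.03 and −0.46 for oxidative phosphorylation and −0.15 and −0.65 for ribosome biogenesis. For the cytosolic heat shock list they were 0.87 and 0.97, and the difference between these medians was not tested.

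A pair of transposon loci, noticed after their values were seen, were at 0 counts in 1 group. YBL005W-A (chromosome II, 221330 to 222652), a Ty element gene beside PDR3, had 0 counts in all 6 PSD1 libraries and 0 to 71 in V5-PSD1, with counts in 4 of 5, and was at least 42.1 fold lower with untagged PSD1 against 3 counts over the group. It had 21 to 34 counts with the empty vector and 0 with the PDR3 deletion. YMR046C (chromosome XIII, 361305 to 362627), another Ty element gene, had 0 counts in all V5-PSD1 libraries and 0 to 56 in PSD1, with counts in 5 of 6, and was at least 33.2 fold higher. It had 0 counts with the empty vector and 6 to 40 with the PDR3 deletion. Ty genes share reads with many near-identical copies, so the locus of these counts is uncertain. Whether the cells of the groups differ at these loci was not tested.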

How the data were processed

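As deposited by the authors, 1 table held expected counts per gene in whole numbers, taken here as rounded, and another held log2(FPKM + 1) values. Tools listed in the submitters' processing notes are RSEM 1.3.0, STAR 2.5.3a and SAMtools 1.3, with sacCer3 as the build. Which annotation was counted, and whether by strand, is not given in the sources used here. Of 7126 entries 6048 matched the R64 annotation and 1078 did not; the latter held 1.68 to 3.05% of counts and stayed in the tests.

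Groups and replicate numbers came from the labels. The expected counts of all 22 libraries were fitted in 1 edgeR 4.0.16 quasi-likelihood model (R 4.3.3) with terms for group (4 levels) and library series, TMM normalisation and edgeR's filter on low counts, which left 6278 genes. Every adjusted p is a Benjamini-Hochberg value over these genes from that model unless another is named, and the threshold was 0.05. Standard errors were taken from the fold change and the F statistic. CPM used TMM library sizes. Alternatives were DESeq2 1.42.0, limma 3.58.1 on the deposited log2 FPKM, other scaling and filters, each series alone, the PSD1 mRNA level as a covariate among the 11 libraries, a replicate block and leaving out each library. That covariate overlaps between the groups through PSD1 replicate 3 only. The fits were also run on simulated counts with known changes in a small set of genes and no library series effect. That setting differs from the data, and no result is drawn from it. No library pair agreed within sampling noise. Promoter sites were searched in the 500 bases before each start codon.

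Named genes were PSD1, PDR3, CIS1, MSP1 and PDR1, the 12 largest rises and the 12 largest falls at 5 CPM or more whose group means of log2 CPM lay the same way in both series (YOR387C met this, though its fitted value in series 5 was 0.06), and up to 4 passing genes per list with the largest change. Other genes named, such as members that did not pass, were added after their values were seen. The comparison and its 27 gene lists were chosen with earlier results of these data known.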

Additional observations from a re-analysis of the deposited data

Results flagged for a closer look

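In 19 of 230 sets of 1 named gene in 1 group, a single library stood far from the others of its group; chance alone flags about 1 in 20 sets, and the sets are not independent. PSD1 replicate 2 was high in CIS1 (119.8 CPM), ADE2 (103.3), ERG3 (705.9), TDH2 (2074), PDC1 (8245) and STE3 (14.42 CPM). The same library was low in ELO3 (196.5 CPM), MIA40 (777.9) and RPL8A (322.7 CPM). Replicate 1 of PSD1 was high in YDR406W-A (108.5 CPM), YOL150C (59.18), URA3 (17300), RPS26B (568.3) and TRX2 (229.7 CPM), and replicate 3 was low in BDH2 (204.8 CPM). Among the V5-PSD1 libraries, replicate 1 was high in ARI1 (34.06 CPM) and ERG1 (425.9 CPM), replicate 3 was high in ARG3 (484.8 CPM) and replicate 5 was low in HAC1 (429.2 CPM). The difference in CIS1 was at least 5.58 on the log2 scale without any 1 library, and no ARG3, BDH2 or ARI1 library crossed into the range of the other group.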

How the results depend on the processing

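Of 114 named genes that passed, 0 lost their call with DESeq2, another scaling, no filter or the PSD1 counts left out, 11 did with the 11 libraries alone, 10 without the series term, 61 in series 5 alone, 14 in series 6 alone and 36 of 113 with the PSD1 level as a covariate. In series 5 alone 313 genes were higher, 287 lower, 72 at least 2 fold higher and 5 at least 2 fold lower. PSD1 mRNA lost its call with the 11 libraries alone (−0.71), in series 5 (−0.76) and in series 6 (−0.645); the cause was not tested beyond the smaller number of samples. YOR387C reversed in series 5 (0.061), and STE6 (0.030), NFT1 (0.0025) and LYS2 (0.0038) reversed with the PSD1 level as a covariate, for causes not tested. Without 1 library, 1068 to 1380 genes were higher, 1064 to 1330 lower, 95 to 155 at least 2 fold higher and 10 to 25 at least 2 fold lower (25 without V5-PSD1 replicate 1, 10 without V5-PSD1 replicate 5), PSD1 was at −0.93 to −0.55 and CIS1 at 5.58 to 6.21. DESeq2 gave 1304 higher and 1350 lower. With the replicate block, 1349 were higher and 1360 lower; deviations of same-numbered libraries correlated at 0.48, 0.182, 0.341, −0.0733 and 0.469, 3 of 5 PSD1 libraries correlated best with their own number, and the numbers were not taken to pair the samples. Depth limits CIS1, YGR035C and the Ty loci, which have few counts in V5-PSD1. The covariate rests on the 1 PSD1 library whose PSD1 level lies among those of V5-PSD1.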

Other observations

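PUT1, ADE17, GCV1 and UGA2, outside the lists and chosen after their values were seen, were also higher with untagged PSD1; no list of their pathways was counted. PUT1, the mitochondrial proline oxidase, was at 386, 495, 384, 410, 421 and 444 CPM in PSD1 replicates 1 to 6 and at 136, 104, 135, 95.6 and 85.3 CPM in V5-PSD1 replicates 1 to 5. The groups did not overlap, and V5-PSD1 did not pass against the empty vector (−0.20, adjusted p = 0.355). The difference was 1.95 ± 0.11 (edgeR adjusted p = 1.8e-10), the smallest p-value after that of PDR5. ADE17, an enzyme of purine synthesis, was at 158 to 521 CPM with PSD1 and 34.9 to 104 CPM with V5-PSD1 (1.88 ± 0.24, adjusted p = 9.86e-06), with PSD1 replicate 2 highest. GCV1, a subunit of the mitochondrial glycine decarboxylase, rose by 1.23 ± 0.17 (adjusted p = 1.6e-05) and UGA2, a succinate semialdehyde dehydrogenase, by 1.28 ± 0.12 (adjusted p = 4.42e-07), both without overlap.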
